A study of Mus musculus with 8 samples.

Results

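CpGs read on both strands of the DNA were compared between the strands in hepatocytes of young and mid-aged mice. These CpGs were chosen by their read counts: a CpG of chromosomes 1 to 19 was kept when each of the 8 mice had at least 10 reads on the plus and at least 10 reads on the minus strand. The rule kept 58107 of the 2986981 autosomal CpGs that were covered in any library. A further 2 positions met the read minimum but are no CpG in the reference genome. The rule used coverage alone, so read counts describe the choice, while the methylation of each strand was not used by it. At the edge of the rule, the 5896 CpGs whose lowest count was 10 reads had a mean methylation of 32.2%, and the 6660 CpGs just outside it, with a lowest count of 9 reads, had 33.0%.

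Hepatocytes had been isolated by perfusion from female C57Bl6/J control mice, and no allele, diet or agent set the groups apart. The mid-aged group held 4 mice of 40 weeks and the young group 4 mice of 10 weeks, and each mouse gave 1 library, so mice are the replicates. Reduced representation bisulfite sequencing (RRBS) cuts DNA with *Msp*I at CCGG, converts unmethylated cytosines and reads the ends of the fragments. The young libraries held 45066297 to 70824588 reads over autosomal CpGs and the mid-aged libraries 82447149 to 115308450, counted anew at every CpG that a read spans. The shallowest library, young mouse 1, also stood apart in the strand differences, so the size of the strand differences and the hemimethylated share are given with and without it.

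Cytosine methylation in mammals lies mostly at CpG, a sequence that reads the same on both strands, so that each CpG holds 2 cytosines that can be methylated. After DNA replication only the old strand carries the mark, and Uhrf1, which recognizes such hemimethylated CpGs, brings the maintenance enzyme Dnmt1 to copy it to the new strand. A symmetric CpG has like levels on both strands, and a hemimethylated CpG is methylated on 1 strand only. RRBS reads of the plus and minus strand come from different molecules, so the values below compare 2 populations of molecules and do not show whether a single molecule is hemimethylated.

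The geometry of the assay decided which CpGs were read from both sides. Reads of 100 bases start at a cut site, the plus strand at the left and the minus strand at the right end of a fragment. Of the 58107 CpGs, 48766 lay inside 19780 *Msp*I fragments with a median length of 141 bases (5th to 95th percentile 116 to 173). The other 9341 (16.1%) lay in the CCGG site itself, where reads of the strands start on neighboring fragments. Promoters, taken as 1500 bases before and 500 bases after a transcription start, held 56.5% of the CpGs, exons 13.8%, introns 17.5% and intergenic DNA 12.2%. The CpGs touched 9334 genes.

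The sequences of the 8 CpGs outside CCGG with the largest strand differences, 1 per gene or locus and of 1 sign in all mice, are shown first, since the results turn on them. They are the plus strand of GRCm38 (mm10) around each CpG, which is in capitals, and a shorter stretch is given for *Grm4*.
Grm4, chr17:27520965-27520994: ttttccagctgggcCGccgccctcagattc
chromosome 1, first intergenic CpG, chr1:177659801-177659860: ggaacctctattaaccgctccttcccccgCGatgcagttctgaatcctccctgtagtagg
Prmt8, chr6:127767402-127767461: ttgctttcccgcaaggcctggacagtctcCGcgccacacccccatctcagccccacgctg
Ddx11, chr17:66136267-66136326: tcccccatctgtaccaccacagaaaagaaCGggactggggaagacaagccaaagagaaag
Gm49318, chr9:22050520-22050579: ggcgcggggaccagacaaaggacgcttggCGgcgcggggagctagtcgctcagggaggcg
chromosome 1, second intergenic CpG, chr1:119443124-119443183: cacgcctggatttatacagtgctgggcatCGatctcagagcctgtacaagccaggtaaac
Adcy5, chr16:35159715-35159774: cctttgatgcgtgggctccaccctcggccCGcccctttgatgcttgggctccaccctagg
Rap1gap, chr4:137684970-137685029: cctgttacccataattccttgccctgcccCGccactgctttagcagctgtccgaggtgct

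The longest run of CpGs with a strand difference lies in 1 fragment of *Hapln4*. It is printed from its left to its right CCGG, with the 7 CpGs read on both strands in capitals.
Hapln4 fragment, chr8:70087001-70087131: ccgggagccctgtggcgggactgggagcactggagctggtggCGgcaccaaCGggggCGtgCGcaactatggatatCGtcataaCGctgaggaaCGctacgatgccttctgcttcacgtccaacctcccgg

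The cell type was checked on promoters with at least 3 CpGs, strands summed. Among 10 hepatocyte markers 2 were covered, and both had low methylation, with 18.8% for *Apob*, the main protein of very low density lipoprotein, and 16.8% for *Fgb*, a fibrinogen chain. *Adgre1*, the F4/80 antigen of macrophages and the 1 covered marker of 7 for leukocytes, had 87.2%. Of the endothelial genes *Pecam1* had 91.9% and *Kdr* 2.66%, and the 4 stellate and 4 cholangiocyte markers averaged 17.7% and 11.5%. The promoters of *Alb* and *Ttr* were not covered, so the label rests on few genes.

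The strands had the same mean level in these CpGs. In mid-aged mice methylation was 31.5% ± 0.0472 (SD, n = 4) on the plus strand and 31.5% ± 0.0456 (SD, n = 4) on the minus strand, and in young mice it was 31.1% ± 0.166 (SD, n = 4) and 31.1% ± 0.120 (SD, n = 4). The mean of plus minus minus over the 8 mice was 0.0045 percentage points ± 0.0514 (SD), with 3 mice above and 5 below 0 (two-sided exact sign-flip permutation test, p = 0.828). It did not pass the test between the ages either (difference -0.0187, exact permutation test of 4 against 4 mice, p = 0.657). Every mid-aged mouse, at 31.4122 to 31.5221%, lay above every young mouse, at 30.9281 to 31.2612%, over both strands. The difference of 0.349 percentage points had p = 0.0286 (exact permutation test), the smallest that 4 against 4 mice allow. In bulk DNA, a change within hepatocytes and a change in the share of cell types cannot be told apart. The other autosomal CpGs that passed the summed minimum of 5 reads had a mean of 44.6%.

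Over single CpGs the strands were close as well. The absolute difference of the strand means over 8 mice had a median of 0.987 percentage points, and 89.6% of the CpGs were under 5. It reached 10 points at 1290 CpGs, 20 at 88 and 50 at 7. Across CpGs the plus and minus means had a Pearson correlation of 0.996, a description over CpGs that share libraries and are not independent. With high meaning at least 80% and low at most 20%, both strands were low at 62.9% of the CpGs, high at 24.3% and intermediate at 9.87%. The hemimethylated class, high on 1 strand and low on the other, held 0 of the 58107 CpGs by the means of the 8 mice.

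**Figure D1:**
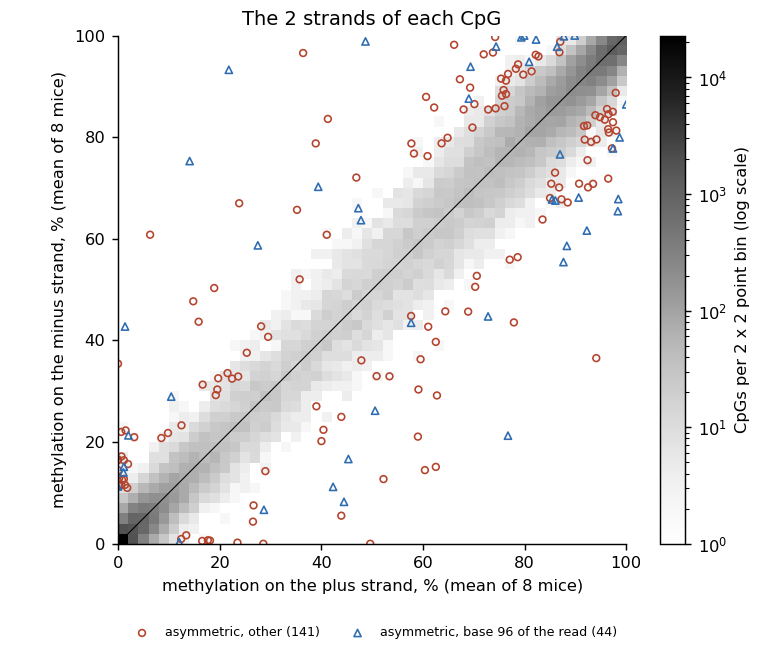
Methylation on the plus strand (x axis, %) against the minus strand (y axis, %), each the mean of 8 mice, for all 58107 CpGs as grey bins on a log color scale, with the 185 CpGs called asymmetric as open symbols. Most CpGs lie in the corners on the diagonal, and of the asymmetric CpGs 44 (triangles) are read 96 bases from a cut site on 1 strand.

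In single mice the hemimethylated class was filled by few CpGs. Counts were 2, 2, 1 and 1 CpGs in mid-aged mice 1 to 4 and 27, 12, 7 and 2 in young mice 1 to 4. The groups overlapped, and the share did not pass the test (-0.0181 percentage points, exact permutation test, p = 0.0857). It was -0.00947 without young mouse 1 (exact permutation test, p = 0.171) and -0.00119 over the 20986 CpGs with at least 20 reads per strand (exact permutation test, p = 1). Of the 49 CpGs that were in this class in any mouse, 44 were so in 1 mouse and 5 in 2 mice. These 5 were the CpGs of *Prmt8* and *Grm4* in 2 young mice each, that of *Hapln4* at 70087095 in 2 mid-aged mice, and those of *Gm49318* and *Ddx11* in 1 mouse of each age.

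The strand difference of a single mouse held counting noise and a part beyond it. The root mean square over the CpGs was 7.03, 5.39, 6.41 and 5.72 percentage points in mid-aged mice 1 to 4 and 12.0, 9.71, 8.21 and 6.77 in young mice 1 to 4. The number of reads alone accounts for 3.88 to 5.36 points in the mid-aged and 4.75 to 5.94 in the young mice. The part beyond counting was 4.54, 3.58, 4.46 and 4.20 in mid-aged mice (4.19 ± 0.438, SD) and 10.5, 8.08, 5.86 and 4.83 in young mice (7.31 ± 2.51, SD). All young mice lay above all mid-aged mice, by 3.12 points in the mean (exact permutation test, p = 0.0286), and by 2.06 points without young mouse 1 (exact permutation test, p = 0.0571, the smallest that 3 against 4 mice allow). The young libraries were also the 4 shallower ones. With every strand thinned to 10 reads the difference was 3.01 points (exact permutation test, p = 0.0286), and PCR copies of 1 molecule could not be recognized, so the age of a mouse and the number of molecules behind its reads cannot be told apart.

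Only a part of this spread was shared between mice. The correlation of the strand difference between 2 mice, across CpGs, was 0.0408 to 0.141 over the 28 pairs. These differences still hold counting noise, which lowers the correlation. The part shared by mice of 1 age had a root mean square of 2.15 points in the mid-aged and 2.25 in the young mice, and between mice of different ages it was 2.02. The mean part beyond counting was 4.19 points in the mid-aged and 7.31 in the young mice. The shared part did not pass the test between the ages (exact permutation test, p = 0.457). Within a mouse, adjacent CpGs of 1 fragment had correlated strand differences, with r = 0.187 to 0.267 over 28986 pairs that share reads.

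**Figure D2:**
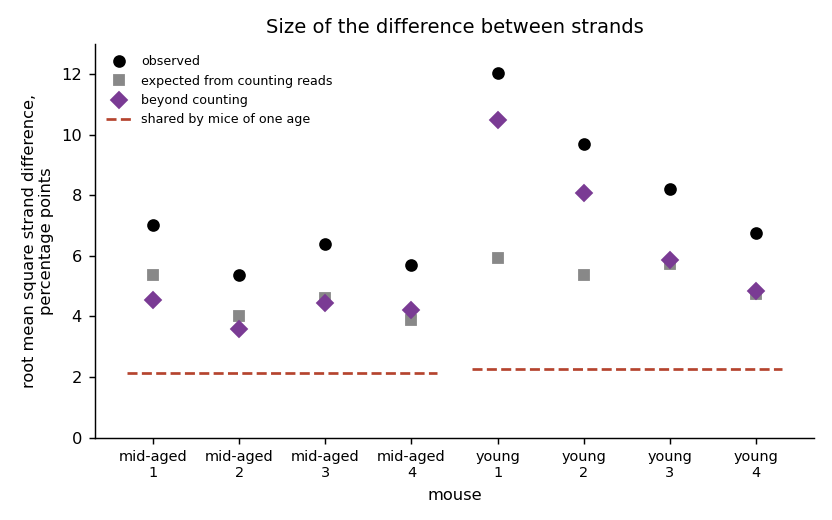
Root mean square of the difference between the strands (y axis, percentage points) in each of the 8 mice (x axis), as observed (circles), from counting reads alone (squares) and beyond counting (diamonds), with the part shared by mice of one age as dashed lines. Beyond counting, the young mice lie at 4.83 to 10.5 and the mid-aged mice at 3.58 to 4.54, while the dashed lines are at 2.25 and 2.15.

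A strand difference that recurs across mice was sought at each CpG with a quasi-binomial fit of the methylated and unmethylated reads, with age as a term. Of the 44361 CpGs tested, 185 (0.417%) passed an adjusted p of 0.05 with strands 10 or more percentage points apart, and are called asymmetric here. The plus strand was higher at 87 and the minus strand at 98, and 126 had the same sign in all 8 mice. The differences had a median of 17.4 points, and 70 reached 20 and 32 reached 30. Leaving out mid-aged mouse 2 lowered the count to 119, and limma on unweighted percents called 0 with a variance trend (3655 at an unadjusted p under 0.05) and 78 without a trend and with CpGs limited to 5 to 95% methylation. In 24 of the 185 both strands were high, in 60 a high strand faced an intermediate one, in 46 both were intermediate, in 33 an intermediate strand faced a low one and in 22 both were low. They lay in 119 genes, with 44 outside genes, and asymmetric CpGs made up 0.654% of tested exon, 0.524% of intergenic, 0.445% of intron and 0.287% of promoter CpGs. These shares are not matched for level. Over all CpGs read on both strands the mean level was 55.4% in exons, 62.0% in intergenic DNA, 57.9% in introns and 10.5% in promoters. By mean level the share was highest from 20 to 40% (1.69%) and from 40 to 60% (1.60%), and was 0 under 5% and from 95%, where a mean so near the limit leaves little or no room for the 10 points that a call needs.

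Asymmetric calls were uneven along the read. CpGs that 1 strand reads 96 bases from its cut site, the last base in use for all but 18 of the CpGs, were called at 44 of 1238 (3.55%), against 141 of 43123 (0.327%) at all other positions and 8 of 1882 (0.425%) at base 95. The strand read at base 96 was the higher one at 34 of the 44 and the lower one at 10. Over all 1620 CpGs with base 96 it was higher by 0.555 percentage points, in 8 of 8 mice (0.252 to 0.873). This distance was singled out after its values were seen, so these are descriptions with no test. Whether a CpG is read at base 96 is therefore given for the 8 CpGs outside CCGG described next, and the part of the read end in those differences was not tested. Outside base 96, 66 calls had the plus and 75 the minus strand higher, and 92 had the same sign in all mice. A fit without the base 96 CpGs called 115.

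*Grm4*, a metabotropic glutamate receptor gene (ENSMUSG00000063239.17), had the largest strand difference at 27520979 of chromosome 17. Mid-aged mice 1 to 4 had 30.6, 24.9, 24.0 and 20.6% on the plus and 90.4, 91.5, 84.6 and 91.0% on the minus strand. Young mice 1 to 4 had 9.38, 20.9, 33.3 and 10.8% on the plus and 100, 97.6, 90.9 and 100% on the minus strand. The strands did not overlap over the 8 mice, and the fit gave -71.0 ± 4.71 percentage points (SE; adjusted p = 2.74e-14), where plus minus minus is negative when the minus strand is higher. The minus strand is read at base 96 here, with 10 to 89 reads per mouse.

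The first intergenic CpG of chromosome 1, at 177659830, lies 57 and 66 bases from its cut sites and so in the middle of both reads. On the plus strand mid-aged mice had 43.5, 38.6, 33.6 and 44.2% and young mice 35.4, 35.8, 26.6 and 33.7%. Its minus strand had 97.1, 98.3, 100 and 93.0% in mid-aged and 100, 87.8, 96.3 and 100% in young mice. The strands did not overlap, with 87.8% or more on the minus and 44.2% or less on the plus strand (-59.9 ± 4.38, SE; adjusted p = 4.3e-13). All 3 CpGs of its fragment that were read on both strands were asymmetric, with the minus strand higher by 22.7 to 59.9 points.

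*Prmt8* encodes a protein arginine methyltransferase (ENSMUSG00000030350.8), and its CpG at 127767431 of chromosome 6 lies in intron 1. The plus strand had 17.1, 14.9, 20.3 and 16.4% in mid-aged and 7.81, 7.74, 7.59 and 21% in young mice. The minus strand, read at base 96, had 77.1, 47.1, 87.1 and 71.4% in mid-aged and 100, 75, 81.8 and 62.9% in young mice. The strands were apart in every mouse (-57.4 ± 4.62, SE; adjusted p = 7.52e-12), with a wide spread on the minus strand. *Adcy5*, an adenylyl cyclase gene (ENSMUSG00000022840.9), has its CpG at 35159744 of chromosome 16, in intron 1. The plus strand had 43.3, 54.4, 49.5 and 61.8% in mid-aged and 31.4, 44.7, 63.6 and 40.8% in young mice, and the minus strand, also at base 96, had 95.7 to 100% in all 8 mice. The difference was -48.0 ± 4.76 points (SE; adjusted p = 3.05e-09).

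*Ddx11* encodes a DNA helicase (ENSMUSG00000035842.10), and the CpG at 66136296 of chromosome 17 lies in its coding exon 9 of 27, 63 and 88 bases from the cut sites. Here the plus strand was the higher one, with 90, 86.1, 93.9 and 100% in mid-aged and 100, 100, 87.1 and 95.7% in young mice. The minus strand had 37.5, 30.2, 19.2 and 34.5% in mid-aged and 47.8, 16.7, 56.2 and 50% in young mice. The strands did not overlap (57.2 ± 5.94, SE; adjusted p = 9.08e-09), with 10 to 52 reads per mouse on the plus strand. *Gm49318* (ENSMUSG00000111842.1) has its CpG at 22050549 of chromosome 9 in intron 3. The plus strand is read at base 96 and had 76.9, 86.5, 59.7 and 70.9% in mid-aged and 88.9, 65.6, 85.3 and 80% in young mice. The minus strand had 6.82, 19.5, 11.6 and 8.46% in mid-aged and 68.8, 12.3, 23.4 and 19.4% in young mice. Only young mouse 1, at 68.8%, brought the ranges of the strands into overlap (56.2 ± 4.92, SE; adjusted p = 9.45e-11).

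At the second intergenic CpG of chromosome 1, at 119443153, the minus strand had 0% in each of the 8 mice, from 10 to 37 reads per mouse. The plus strand had 40.0, 52.0, 70.8 and 53.1% in mid-aged and 56.2, 33.3, 42.9 and 48.6% in young mice. Methylation was seen on 1 strand only (51.4 ± 5.84, SE; adjusted p = 9.45e-08), and the CpG lies 84 and 95 bases from its cut sites. *Rap1gap*, the gene of a GTPase-activating protein of Rap1 (ENSMUSG00000041351.16), has its CpG at 137684999 of chromosome 4 in intron 2. It lies 86 and 35 bases from its cut sites. Its plus strand had 68.8, 67.7, 77.8 and 63.0% in mid-aged and 36.8, 57.7, 90 and 38.5% in young mice, and the minus strand 21.7, 14.3, 33.3 and 12.0% and 12.5, 11.1, 7.69 and 8.33%. The difference was 46.9 ± 6.84 points (SE; adjusted p = 2.65e-05).

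Inside CCGG sites, where reads that start at the site come from 2 neighboring fragments, 29 CpGs were asymmetric (0.315% of those tested, against 0.444% outside the sites). *Gpr45*, an orphan G protein-coupled receptor gene (ENSMUSG00000041907.9), had the largest difference at 42956367 of chromosome 1, in intron 1. Its plus strand had 3.8, 10.5, 0 and 1.82% in mid-aged and 0, 29.2, 5.26 and 0% in young mice, and its minus strand 57.5, 54.3, 57.7 and 90.5% and 73.3, 46.7, 63.6 and 42.9%. The minus strand was higher in every mouse (-52.9 ± 7.01, SE; adjusted p = 3.79e-06). The next cut site to its right is 3244 bases away. Another CCGG site of *Gpr45*, at 42956272, was asymmetric in the other direction, with 60.4% on the plus and 14.5% on the minus strand. Which fragment the lower strand of either site was read from was not tested. *Ssh1*, which encodes a phosphatase of cofilin (ENSMUSG00000042121.16), had the plus strand higher at 113978962 of chromosome 5, in intron 2. The plus strand mean was 52.2% ± 12.1 (SD, n = 8) and the minus strand mean 12.7% ± 10.4 (SD, n = 8), a difference of 38.3 ± 5.05 points (SE; adjusted p = 3.59e-06). The lincRNA gene *Gm26917* (ENSMUSG00000097971.3) had 41.3% ± 8.51 on the plus and 83.6% ± 15.5 (SD, n = 8) on the minus strand at 39845557 of chromosome 17 (adjusted p = 8.74e-08). This locus overlaps a ribosomal RNA repeat of many copies, so its reads cannot be placed with certainty. At 46334972 of chromosome 9, outside genes, the difference of 21.8 ± 5.51 points (SE) had an adjusted p of 0.0499, and it no longer passed without any 1 of mid-aged mice 1, 2 and 4 or young mice 2, 3 and 4 (adjusted p up to 0.247).

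**Figure D3:**
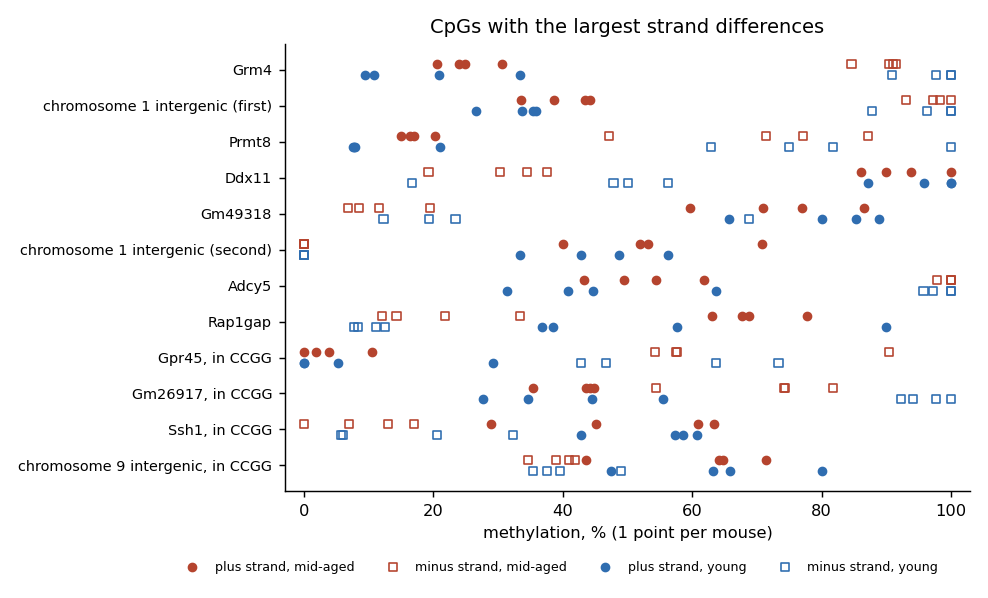
Methylation (x axis, %) of the plus strand (filled circles) and minus strand (open squares) in each mid-aged (red) and young (blue) mouse at 12 asymmetric CpGs (y axis), the 8 outside and 4 inside CCGG with the largest differences among those of 1 sign in all mice, 1 per gene or 1000 bases. At Grm4 the plus strand lies at 9.38 to 33.3% and the minus strand at 84.6 to 100%, and at the second intergenic CpG of chromosome 1 the minus strand is at 0 in all mice.

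Most asymmetric CpGs outside CCGG sites were the only call of their fragment. This count leaves out neighbors that differed by less than 10 points. How many CpGs read on both strands the fragments with 1 call held was not examined. The 156 calls outside CCGG sites lay in 139 fragments, of which 131 held 1 call and 8 held 2 to 7, together 25 CpGs. In 7 of these 8 fragments all calls had the same strand higher, and the exception was *Slc35b2*, a gene of the nucleotide sugar transporter family. CpGs of 1 fragment share reads, so such a run is not several independent observations. In 2 fragments of *Gm26917*, 4 of 7 and 2 of 4 CpGs read on both strands were called, with the minus strand higher by 10.1 to 14.6 points.

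*Hapln4* is the gene of a link protein that joins hyaluronan and proteoglycans (ENSMUSG00000007594.10). All 7 CpGs read on both strands in the fragment printed above were asymmetric, with the minus strand higher by 25.5 to 42.5 points. They lie in coding exon 4 of 5. The mean of the 7 CpGs on the plus strand was 31.1, 25.3, 42.6 and 30.9% in mid-aged and 23.6, 31.5, 36.4 and 18.4% in young mice. On the minus strand it was 80.5, 80.6, 78.1 and 77.0% in mid-aged and 45.4, 50.4, 44.4 and 45.4% in young mice. The ages overlapped on the plus strand and were apart on the minus strand, and the strand difference was -46.6 points at 40 weeks and -18.9 points at 10 weeks. The fragment was picked for its strand difference, and these means are given with no test. In the fits of single CpGs, age was called on the minus strand at 6 of the 7 and on the plus strand at 0, and the test of age by strand had adjusted p from 0.941 to 0.973. The plus strand had only 11 to 30 reads per mouse here, and the minus strand 26 to 260.

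*Usp49*, which encodes a deubiquitinase (ENSMUSG00000090115.7), had 2 nearby fragments, not adjoining, in coding exon 3 of 7 with the plus strand higher. In the first fragment all 3 CpGs read on both strands were asymmetric, by 18 to 33.6 points. Their mean on the plus strand was 73.6, 72.5, 74.4 and 73.1% in mid-aged and 32.9, 46.6, 57.2 and 52.5% in young mice. The minus strand had 45.0, 42.8, 28.2 and 29.6% in mid-aged and 7.86, 37.1, 33.5 and 29.7% in young mice. Here the ages were apart on the plus strand and overlapped on the minus strand, which had 20 to 86 reads per mouse. The test of age by strand did not pass at any of the 3 CpGs (adjusted p = 0.941), and the means are again a description. In the second fragment 2 of 8 CpGs read on both strands were asymmetric, at 47672627 and 47672633. These 2 were higher in mid-aged mice on both strands. The fit had the plus strand higher at all 8 CpGs, by 3.96 to 20.1 points.

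**Figure D4:**
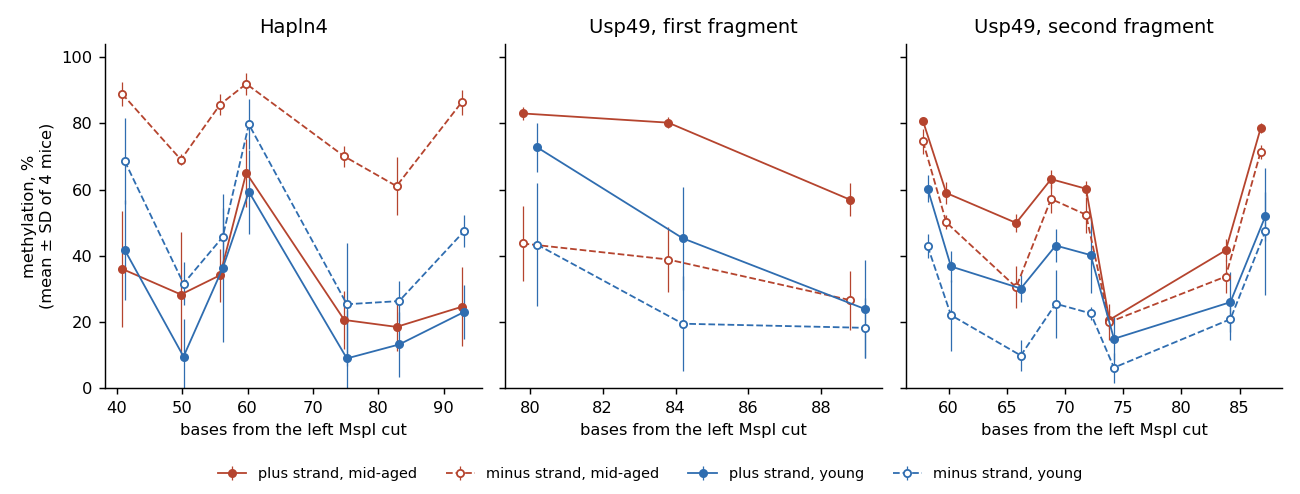
Methylation (y axis, %, mean ± SD of 4 mice) of each CpG read on both strands along the fragment of Hapln4 and the 2 fragments of Usp49 (x axis, bases from the left *Msp*I cut) on the plus (filled, solid) and minus strand (open, dashed) in mid-aged (red) and young (blue) mice. In Hapln4 the mid-aged minus strand lies above the other 3 lines at all 7 CpGs, and in the first fragment of Usp49 the mid-aged plus strand lies highest at all 3.

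Whether the strand difference of a CpG itself differed between 10 and 40 weeks was tested in the same fit, and 2 of 44361 CpGs (0.00451%) were called. At an unadjusted p under 0.05 there were 2262 (5.10%). The count was 0 when mid-aged mouse 1, 3 or 4 or young mouse 2 or 4 was left out, 1 without young mouse 3, 3 without mid-aged mouse 2 and 4 without young mouse 1. *Cdk8*, the gene of the Mediator kinase (ENSMUSG00000029635.15), was called at 146261248 of chromosome 5, in intron 2. It had 140 to 957 reads per mouse on the plus and 158 to 815 on the minus strand, where the medians of the mice were 27 to 120. Whether these reads come from 1 place in the genome was not tested. Levels of the plus strand were 34.8, 61.0, 49.5 and 56.9% in mid-aged and 84.3, 59.3, 61.5 and 69.0% in young mice, and the minus strand 34.6, 41.4, 36.8 and 44.6% and 46.8, 30.2, 23 and 33.0%. The strands overlapped over the mid-aged mice and were apart over the young mice, and the strand difference was smaller at 40 weeks by 21.8 ± 3.79 points (SE; adjusted p = 0.0191). It did not pass without any 1 of 6 mice (adjusted p up to 0.451). *Pura*, which encodes a single-stranded nucleic acid binding protein (ENSMUSG00000043991.5), was called at 36287148 of chromosome 18, in its 5′ UTR. Its plus strand had 0, 20, 0 and 28.6% in young mice 1 to 4 and at most 0.543% in mid-aged mice, and its minus strand at most 1.08% in all mice. The call (-15.6 ± 2.59, SE; adjusted p = 0.0148) rests on young mice 2 and 4, and without young mouse 2 the adjusted p was 0.690.

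The age of the mice was then read on each strand separately, so that each strand checks the other with different reads of the same mice. On the plus strand 147 of 33504 tested CpGs read on both strands were called with age (0.439%), 74 higher and 73 lower in mid-aged mice, against 0.424% of all CpGs tested on that strand. On the minus strand 163 of 33591 were called (0.485%), 92 higher and 71 lower, against 0.438% of all. Both shares were near the background. Summed over strands 325 of 44361 were called (0.733%), 164 higher and 161 lower, against 0.417% of all CpGs with at least 5 reads, a background with lower coverage.

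Called on both strands were 74 of the 28226 CpGs tested on both, 41 higher and 33 lower in mid-aged mice, and all 74 had the same direction on the 2 strands. They were 50.3% of the plus and 45.4% of the minus calls, and without young mouse 2 their number was 44. Limma on unweighted percents gave 0 with a variance trend and 22 without a trend and with CpGs limited to 5 to 95% methylation. They lay in 44 fragments and 34 genes, with 32 in promoters, 19 in exons, 19 in introns and 4 between genes, and their median size was 35 points on the plus and 33.6 on the minus strand. Among CpGs tested on both strands, another 72 were called on the plus strand alone, and 67 of them had the same sign on the minus strand, with median sizes of 23.1 and 14.6 points. On the minus strand alone 86 of them were called, 81 with the same sign on the plus strand, with medians of 22.3 and 14 points. Over all CpGs the age difference of the strands had r = 0.326 across CpGs. Of the asymmetric CpGs, age was called at 6 of 166 on the plus and 11 of 169 on the minus strand, and at 3 on both. These are 3.61% and 6.51%, beside 0.439% and 0.485% of all CpGs read on both strands, and 6 of the 11 minus strand calls lie in the 1 *Hapln4* fragment, whose CpGs share reads. The shares are not matched for level. Of the 44361 CpGs tested for a strand difference, 18349 had a level under 5% and 5834 from 95%, and 0 of these were asymmetric.

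**Figure D5:**
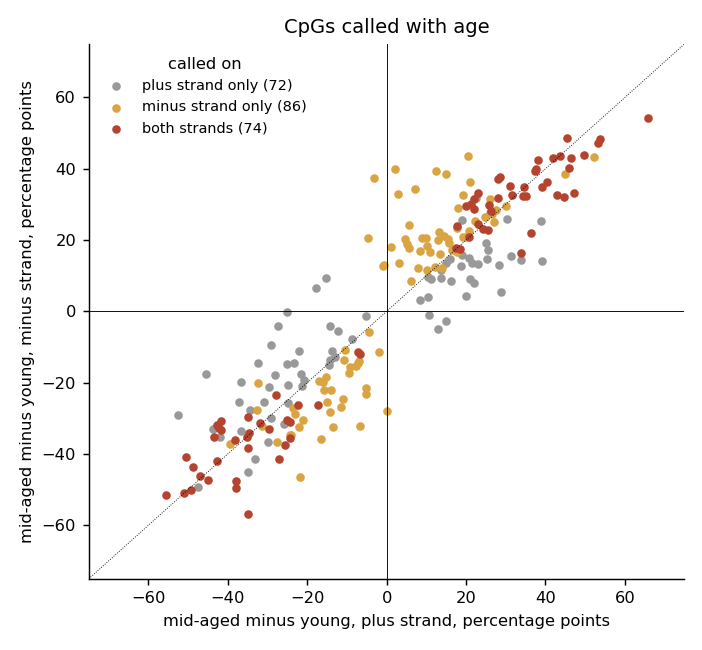
Difference between mid-aged and young mice (percentage points) on the plus strand (x axis) and the minus strand (y axis) for CpGs called with age on both strands (74), on the plus strand only (72) or on the minus strand only (86), with the dotted line where both are equal. The 74 CpGs called on both lie in the quadrants of equal sign, 41 higher and 33 lower in mid-aged mice.

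The gains and losses with the largest smaller difference of the 2 strands are shown with their sequence, on the plus strand of GRCm38 with the CpG in capitals.
Mapk15, chr15:75997941-75998000: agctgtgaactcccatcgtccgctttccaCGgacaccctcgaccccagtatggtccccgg
C1ql3, chr2:13010398-13010457: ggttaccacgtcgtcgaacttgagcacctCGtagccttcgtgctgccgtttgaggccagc
Spag1, chr15:36210445-36210504: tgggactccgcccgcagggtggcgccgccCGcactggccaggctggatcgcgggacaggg
Gas6, chr8:13491829-13491888: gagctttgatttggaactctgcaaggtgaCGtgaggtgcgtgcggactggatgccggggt
Fasn, chr11:120820972-120821031: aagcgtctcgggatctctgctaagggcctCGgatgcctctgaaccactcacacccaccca
Nfkbia, chr12:55490572-55490631: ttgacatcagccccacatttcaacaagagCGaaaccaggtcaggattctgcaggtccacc

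Methylation was gained on both strands of *Mapk15*, an atypical MAP kinase gene (ENSMUSG00000063704.13), at 75997970 of chromosome 15 in intron 10. Plus strand levels were 71.1, 73.9, 61.5 and 79.1% in mid-aged and 0, 18.5, 7.69 and 0% in young mice, and the minus strand 68.6, 70.7, 53.1 and 59.6% and 15, 2.08, 12.9 and 13.3%. The gain was 65.8 ± 9.45 points on the plus and 54.2 ± 7.24 on the minus strand (SE; adjusted p = 2.2e-06 and 2.06e-07). *C1ql3*, the gene of a secreted C1q-like protein (ENSMUSG00000049630.6), was called on both strands at 9 CpGs, the most of any gene. At 13010427 of chromosome 2, in coding exon 1 of 2, the plus strand had 63.0, 62.6, 48.5 and 57.7% in mid-aged and 5.71, 11.7, 19.6 and 15% in young mice, and the minus strand 63.7, 54.2, 57.3 and 53.8% and 0, 8.20, 4 and 12%. Both strands rose by like amounts, 45.3 ± 3.93 and 48.7 ± 4.58 points (SE; adjusted p = 1.42e-13 and 9.29e-13). *Spag1*, whose product helps to assemble dynein arms of cilia (ENSMUSG00000037617.12), had 6 such CpGs. At 36210474 of chromosome 15, in intron 10, the gain was 43.7 ± 5.67 points on the plus and 43.5 ± 6.23 on the minus strand (SE; adjusted p = 1.57e-07 and 1.44e-06).

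Losses on both strands were led by *Gas6*, which encodes a TAM receptor ligand (ENSMUSG00000031451.6), at 13491858 of chromosome 8 in intron 2. Plus strand levels were 33.3, 31.8, 36.5 and 26.8% in mid-aged and 91.7, 84.2, 90.4 and 87.2% in young mice, and the minus strand 37.0, 28.8, 37.5 and 39.1% and 100, 66.7, 84.0 and 88.2%. The plus strand fell by 55.5 ± 5.92 and the minus strand by 51.4 ± 9.38 points (SE; adjusted p = 2.94e-10 and 0.000359). *Fasn*, the gene of fatty acid synthase (ENSMUSG00000025153.9), is read exactly 76 bases from both cut sites at 120821001 of chromosome 11, in coding exon 4 of 43. There the plus strand had 51.4, 34.5, 31.1 and 34.3% in mid-aged and 81.2, 87.5, 86.5 and 88.6% in young mice, and the minus strand 59.4, 38.8, 48.5 and 35% and 94.4, 92.5, 93.2 and 97.9%. The loss was the same on both strands within its error (50.9 ± 7.17 and 51.0 ± 5.37 points, SE; adjusted p = 1.32e-06 and 6.87e-11). *Nfkbia*, which encodes the NF-κB inhibitor IκBα (ENSMUSG00000021025.8), had 9.68, 13.4, 13.4 and 12.9% on the plus strand of mid-aged and 59.3, 64.5, 65.6 and 52.9% of young mice at 55490601 of chromosome 12, in coding exon 5 of 6. Its minus strand had 10.2, 20.9, 17.9 and 20.2% and 59.4, 73.1, 77.6 and 53.8% (adjusted p = 3.24e-10 and 1.18e-08 for the strands).

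Among the 8 largest gains were also *Phldb2*, *Cyp26c1*, which degrades retinoic acid, the sialidase gene *Neu2*, the gene of the tendon transcription factor scleraxis (*Scx*) and *Hapln4* at 70088261, in the exon after the asymmetric fragment. The 8 largest losses included *Mtss1*, *Gm38398*, the transcription factor gene *Usf2*, the inflammasome gene *Nlrp6* and a CpG between genes at 35503613 of chromosome 13. At all 16 CpGs the ages did not overlap on either strand, and 0 of them was called asymmetric or for age by strand. The smaller of the 2 strand differences ranged from 33.2 to 54.2 points among the gains and from 36.1 to 51.4 among the losses. At *Mtss1* the plus strand call (adjusted p = 0.0409) no longer passed without any 1 of the mid-aged mice or young mouse 1, 2 or 3, nor did the minus strand without mid-aged mouse 2. At the CpG of chromosome 13 the minus strand call (adjusted p = 0.0305) no longer passed without mid-aged mouse 1, 2 or 4 or young mouse 2 or 3.

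*Scx* held both kinds of CpG. At 76457702 of chromosome 15 the strands rose alike, by 34.5 ± 4.58 and 35 ± 4.68 points (SE). At 76457712, 10 bases on, which the study itself picked from these libraries, the plus strand had 71.4, 79.9, 86.4 and 80% in mid-aged and 27.6, 49.2, 40.0 and 31.3% in young mice, and the minus strand 89.0, 80.6, 84.9 and 86.0% and 81.3, 55.2, 69.2 and 68.0%. Age was called on both strands (36.3 ± 4.97 and 22.1 ± 4.84 points, SE), and the minus strand was higher by 14.9 ± 3.64 points (SE; adjusted p = 0.0405). The test of age by strand had an adjusted p of 0.941 there. CpGs that were asymmetric and called with age on both strands were this one and the 2 of the second *Usp49* fragment.

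Gene lists were read at promoters of transcripts that GENCODE tags as basic, while the promoter shares above take other transcripts as well. Imprinted genes, which carry methylation on the allele of 1 parent and so have intermediate levels in a mixture of both alleles, had 105 promoter CpGs over the whole list, and 11 genes held at least 3. Of the 105 CpGs 37 (35.2%) had a mean level between 20 and 80%, with a median absolute strand difference of 3.13 points, beside 4.31 over all CpGs of such a level. The plus and minus strand lay at 69.4% ± 9.61 and 66.7% ± 13.9 (SD, n = 8) in *Mcts2*. They were farther apart in *Zrsr1*, at 64.9% ± 8.11 and 55.4% ± 16.3, and in *Peg10*, at 63.6% ± 11.1 and 68.4% ± 12.8 (SD, n = 8). In *Peg12*, with a mean under 20%, they lay at 15.9% ± 3.40 and 15.7% ± 4.21 (SD, n = 8). Of the 92 tested for a strand difference 1 was asymmetric, beside 0.417% of all CpGs tested, and lies in *Mkrn3* at 62419907 of chromosome 7, with 26.7% ± 6.14 on the plus and 7.55% ± 4.04 on the minus strand (SD, n = 8; adjusted p = 0.0352). The list of developmental transcription factors had 337 CpGs with a mean of 4.53%, with at least 3 in 45 genes, and 0 of the 303 tested were asymmetric, beside 0.417% of all CpGs tested and 0 of all 18349 tested at levels under 5%. The list of methylation maintenance and removal had 39 CpGs with a mean of 3.66%, of which 20 were tested and 0 were asymmetric. At least 3 CpGs were held by *Uhrf1*, *Uhrf2*, *Tet2*, *Lig1*, *Cdca7*, *Mbd1* and *Ctcf*, and *Uhrf1* had 1.28% ± 0.637 on the plus and 1.49% ± 1.02 (SD, n = 8) on the minus strand.

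Asymmetric CpGs numbered 0 of 18 tested in the hepatocyte list (23 CpGs, among them those of *Cebpa* and *Foxa2*), 0 of 18 in the lipogenesis list (37 CpGs), 0 of 18 in the stellate list (25) and 0 of 11 in the cholangiocyte list (15). With 0.417% of all tested CpGs called, lists of this size hold too few CpGs to set them apart from the background. The endothelial list had 0 CpGs. The leukocyte list held 4 CpGs of *Coro1a*, the gene of an actin-binding protein of leukocytes. Of these, 1 in a CCGG site had 12.5% ± 3.84 on the plus and 23.3% ± 6.44 on the minus strand (SD, n = 8; adjusted p = 0.0349). Genes with age differences in an earlier account of these libraries had 55 promoter CpGs over the list, of which 5 were called with age on both strands, all in *Scx*. *Mapk15*, also on this list, had 4 CpGs called on both strands. Its CpG at 75997970 counts as promoter only when other than basic transcripts are taken too. The genes of this list were chosen on the same samples, so these counts are not independent evidence.

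Orienting the strands gave small differences. Inside protein-coding genes, promoters left out, sense minus antisense was -0.0815 percentage points ± 0.0953 (SD, n = 8) over 16279 CpGs and below 0 in 7 of 8 mice (two-sided exact sign-flip permutation test, p = 0.0547). By the bases beside the CpG, the strand that reads ACGA differed from its complement by -0.256 points, below 0 in 8 of 8 mice (3463 CpGs), and the strand that reads ACGG by 0.203 points, above 0 in 8 of 8 (5659 CpGs). Both passed after adjustment over the 6 contexts (exact sign-flip permutation test, adjusted p = 0.0234), but not with 20 reads per strand (adjusted p = 0.0703 and 0.0781) or thinned to 10 reads (adjusted p = 0.0703 for both), and the other contexts did not pass. Between the ages the contexts GCGA (-0.277) and CCGC (0.161) were apart in all mice (exact permutation test, p = 0.0286), with adjusted p = 0.0857 over 6. The strand whose reads start nearer to the CpG differed from the other by -0.0134 points over 48172 CpGs (exact sign-flip permutation test, p = 0.359).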

How the data were processed

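RRBS of hepatocyte DNA from 8 mice gave 1 library per mouse, and reads were single and 100 bases long. The submitters' processing notes list Picard 1.115, SAMtools 1.3, BWA 0.6.2, Trim Galore 0.4.2 and FastQC, and no methylation caller was found in the sources read here. The deposited files hold, for each strand of each CpG, the percent of methylated reads and the count of reads made by the authors' pipeline, on mm10. Methylated counts were taken as percent times count, rounded to whole reads.

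Strands were kept apart here. CpGs were matched to GRCm38, annotated with GENCODE vM21 and placed in *Msp*I fragments. The strand difference of each mouse was fitted on age with a quasi-binomial variance and read weights, for CpGs with at least 10 methylated and 10 unmethylated reads, and the dispersion was moderated as in limma (version 3.58.1) with a floor of 1. Each strand was fitted on age likewise over all autosomal CpGs with at least 10 reads on it, and called at 5 percentage points with a variance under 0.05. Adjusted p-values are Benjamini-Hochberg over all CpGs of a fit. Per mouse values had two-sided exact permutation tests. The noise subtracted per mouse covers counting error only, while the SEs of the fits include the spread between mice.

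The members and lists were chosen with earlier results of these data known. Named CpGs were the 8 largest asymmetric calls outside CCGG and the 4 largest inside it with 1 sign in all mice, the 8 largest gains and 8 largest losses on both strands, all by 1 CpG per gene or 1000 bases, the calls of age by strand, and calls in gene lists. CpGs of fragments with several calls, *Scx* at 76457712 and recurrent hemimethylated CpGs were named after their values were seen. The fits were tested on simulated data. Alternatives were the read minimum, thinning, CCGG sites, the replicate block, limma (R 4.3.3), thresholds and leaving out each mouse. Python 3.11.15, numpy 2.4.6 and scipy 1.17.1 were used.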

Additional observations from a re-analysis of the deposited data

Results flagged for a closer look

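In groups of 4 mice, 1 mouse lay apart from the other 3 beyond Dixon's 95% critical value in 12 of 150 groups examined, and chance gives about 1 in 20. Mid-aged mouse 3 had 84.6% on the minus strand of *Grm4* (others 90.4 to 91.5%) and 74.5% on the plus strand of *Spag1* (others 81.5 to 82.5%), and its GCGA context differed between strands by -0.0960 points (others -0.190 to -0.186). Mid-aged mouse 2 had 97.8% on the minus strand of *Adcy5* (others 100%) and 35.4% on the plus strand of *Gm26917* (others 43.6 to 44.9%). Mid-aged mouse 4 had 90.5% on the minus strand of *Gpr45* (others 54.3 to 57.7%). Mid-aged mouse 1 had 51.4% on the plus strand of *Fasn* (others 31.1 to 34.5%) and 9.68% on that of *Nfkbia* (others 12.9 to 13.4%).

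Among young mice, mouse 4 had 21% on the plus strand of *Prmt8* (others 7.59 to 7.81%) and 66.7% on that of *Mtss1* (others 100%). Young mouse 2 had 2.08% on the minus strand of *Mapk15* (others 12.9 to 15%), and young mouse 3 had 72.1% on the plus strand of *Nlrp6* (others 35.3 to 39.3%).

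The strand difference itself differed between the ages by the test of age by strand at *Cdk8* (-21.8 points) and *Pura* (-15.6 points).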

How the results depend on the processing

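With at least 20 reads per strand, 78 CpGs were asymmetric, 68 were called with age on the plus, 73 on the minus and 34 on both strands, with fewer CpGs tested, and the difference by read position was -0.0435 points (exact permutation test, p = 0.0078). ACGA was then -0.256 and ACGG 0.174 (no longer passing), while CCGA (0.0115) and GCGA (0.0131) changed sign. Thinned to 10 reads, ACGA was -0.204 and ACGG 0.239 (no longer passing), CCGA 0.0475 (sign changed) and sense minus antisense -0.0872 (now passing). Without CpGs in or near CCGG the mean strand difference was -0.000705 (sign changed) and sense minus antisense -0.0812 (now passing). Limma with a trend, on unweighted percents, called 0 asymmetric CpGs, 0 for age by strand and 0 with age on the plus, minus or both strands. At an unadjusted p under 0.05 it had 3655, 2061, 16752 and 16708 for the strand, age by strand, plus and minus tests. Its strand fit put the largest prior variance at 6.94e+10, where the largest variance observed was 2257. The following were chosen after seeing the data: limma without a trend over CpGs of 5 to 95% called 78 asymmetric (69 of the 185), 0 for age by strand, 52 plus, 62 minus and 22 both; 115 were asymmetric without base 96; and the strand difference shared by mice of 1 age differed by -0.103 points. A minimum of 20 percentage points left 70 asymmetric CpGs. Replicate numbers did not pair the mice (correlations of deviations -0.00856 to 0.0163). With the replicate block, the excess (-3.12) and the level (0.349) had p = 0.125, the smallest possible for 4 pairs (exact permutation test), and 1, 131, 147 and 65 CpGs were called for age by strand, plus, minus and both. The cause of these changes was not tested unless stated.

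Leaving out each mouse in turn gave an excess difference of -3.95 to -2.06, a level difference of 0.286 to 0.397 (both p = 0.0571, the smallest that 4 against 3 mice allow in an exact permutation test), a mean strand difference of -0.00884 to 0.0155 (below 0 without young mouse 1, and -0.00219 without young mouse 2), and sense minus antisense of -0.110 to -0.0691 (passing without young mouse 1). Counts were 119 to 207 asymmetric, 0 to 4 for age by strand, 107 to 161 plus, 122 to 184 minus and 44 to 76 both. Values of named CpGs kept their call in 338 such fits, lost it in 30 and reversed in 0. At 10 reads a strand, a level moves in steps of 10 percentage points, so small differences at single CpGs were not detectable.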
